A study of Mus musculus with 7 samples.

Results

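The macrophages described here are cells of the mouse seminal vesicle that carried RNA of the mannose receptor gene *Mrc1* or of *Cd163*, the scavenger receptor for hemoglobin and haptoglobin complexes, and no RNA of *Trem2* or *Cd72*. A cell was taken as a member if it held at least 500 genes and at most 10% mitochondrial unique molecular identifiers (UMIs, each a tag of 1 captured RNA molecule). It also had to hold at least 10 UMIs of the complement genes *C1qa*, *C1qb* and *C1qc* together, at least 1 UMI of *Mrc1* or *Cd163*, and 0 UMIs of *Trem2*, *Cd72*, *Cd3d*, *Cd3e* and *Cd3g*. This rule gave 304 of the 40342 cells that passed the limits on genes and mitochondrial UMIs, from all 23 mice. The cells were thus selected on the UMIs of these 10 genes, whose levels are given only as a description.

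Dissociated seminal vesicles of male mice were profiled by droplet single-cell RNA sequencing in 7 libraries. An aging pool held 10 C57BL/6J males on chow, namely 2 of 3 months (Y1 and Y2), 4 of 20 months and 4 of 28 months. Of the 4 mice at each older age, 2 were untreated (20C1, 20C2, 28C1 and 28C2) and 2 had received transient rapamycin (20R1, 20R2, 28R1 and 28R2). A diet pool held 8 FVB/NJ males of 3 months, with 2 each on AIN-93G control diet (Ctrl1 and Ctrl2), caloric restriction (CR1 and CR2), high fat diet (HF1 and HF2) and low protein diet (LP1 and LP2). The other 5 libraries held 1 FVB/NJ male each, and were Young (3 months) and Old (18 months), both on the control diet by the study's sample list, and Ctrl3 (control diet), HF3 (high fat diet) and LP3 (low protein diet), all of 3 months. All C57BL/6J mice were on chow and no FVB/NJ mouse was, so strain cannot be told apart from diet or from the pool, nor largely from age.

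Macrophages that carry *Mrc1* and *Cd163* are found in the connective tissue of many organs, often beside blood vessels, where they take up debris, proteins and hemoglobin. They secrete complement components and chemokines, the small proteins that draw monocytes, T cells and other leukocytes into tissue. Macrophages that carry *Trem2*, a receptor for lipids, are known for lysosomal and lipid handling genes, and C1q-rich cells with *Trem2* or *Cd72* UMIs and none of *Mrc1* or *Cd163* serve below as the comparison class, called the *Trem2* *Cd72* macrophages. There were 408 of them.

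The label of the cells was checked against marker genes in the summed RNA of the 304 members, given as UMIs for every 1000000 UMIs of the sum (CPM, in which each UMI stands for 1 molecule, so that gene length does not enter). Of the 7 macrophage genes listed, the rule used the 3 C1q genes. The other 4 were all present, with *Csf1r*, the receptor for the macrophage growth factor CSF1, at 589 CPM, *Cd68* at 417, *Adgre1* at 199.9 and *Fcgr1* at 67.8 CPM, against 4.54, 5.86, 0 and 0 CPM in collagen-rich cells of the same samples. Collagen-rich cells were those with at least 10 UMIs of *Col1a1*, *Col1a2* and *Col3a1* together and no UMI of the C1q genes or of the leukocyte gene *Ptprc*. This choice left out collagen-rich cells with such leukocyte RNA, so their values can lie below the level of free RNA. The 8 T cell genes summed to 31.2 CPM, led by *Il7r* at 18.3 CPM, with the T cell receptor gene *Trac* at 0, while *Cd3d*, *Cd3e* and *Cd3g* were set to 0 by the rule. The 5 NK cell genes summed to 53.2 CPM, led by *Gzma* at 34.8 CPM, with 39 of their 58 UMIs in 1 cell of Ctrl2 and 10 in 1 cell of Ctrl1, and their mean over the 14 mice with at least 10 members was 5.68 CPM. The 4 B cell genes summed to 16.5 CPM. Of 4 neutrophil genes, *Csf3r* was at 22.0 CPM and *S100a8*, *S100a9* and *Retnlg* were at 0. The 5 monocyte genes reached 219 CPM, led by *Emilin2* at 102 CPM, and the 9 dendritic cell genes 203 CPM, led by *Ccl22* at 70.6 CPM. The macrophage genes that the rule did not use were thus present, and the part of the other leukocyte genes in the results was not tested.

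RNA of the secretory epithelium was also found in the members. The 5 seminal vesicle secretory genes *Svs1*, *Svs2*, *Svs4*, *Svs5* and *Svs6* together made 32746 CPM in members of the aging pool and 31264 CPM in members of the diet pool. In the *Trem2* *Cd72* macrophages they made 30352 and 54571 CPM, and the most abundant was *Svs5*, which encodes a protein of seminal fluid. The 5 fibroblast genes were at 406 CPM in the members, led by the proteoglycan gene *Dcn* at 278 CPM, and 5 epithelial genes other than those of secretion were at 396 CPM. In these droplet data RNA free in the cell suspension and RNA made by the cell cannot be told apart, and the part of these genes in the results below was not tested.

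The libraries of Young and Old went against their tissue label. Over all cells, *Svs5* was at 3.24 CPM in these 2 libraries, against 147042 CPM in the aging pool, 127798 CPM in the diet pool and 326211 CPM in the single libraries of Ctrl3, HF3 and LP3. The epididymis genes *Lcn8*, *Lcn9*, *Gpx5* and *Adam7* summed to 54327 CPM in Young and Old and to 0.554, 0.107 and 0.241 CPM in the other 3 sets. These libraries gave 50 of the 304 members, and the class contrast, the strain tests, the levels by class and most per-cell shares and correlations are given with and without them. Between 1 and 20 cell barcodes were shared by any pair of libraries, and 0 occurred more than once within a pool. The total per mouse over the cells that passed ran from 974010 UMIs in Ctrl2 to 46338707 UMIs in Ctrl3, and a member held a median of 3110.0 UMIs (885 to 20180) and of 1102.5 genes.

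*Ccl2*, *Ccl7*, *Ccl12* and *Ccl8*, chemokine genes that were higher in members, lie in a cluster on mouse chromosome 11 (GRCm38, GENCODE vM21, all on the + strand) together with *Ccl11*, which did not pass the test. *Ccl2* lies at chr11:82035571-82037453, *Ccl7* at chr11:82045712-82047525, *Ccl11* at chr11:82057823-82062955, *Ccl12* at chr11:82101845-82103400 and *Ccl8* at chr11:82115185-82116799. Chemokines of this cluster are known to draw monocytes and eosinophils. *Mrc1* lies at chr2:14229392-14332057 and *Cd163* at chr6:124304656-124330527, both also on the + strand. As *Ccl8* and *Ccl12* come from the same cluster but separated the macrophage classes to very different degrees, the 250 bases before the RefSeq start of each gene are shown from chr11:82114935-82115184, + strand and chr11:82101595-82101844, + strand (RefSeq, GRCm38.p6). *Pla2g2d*, the gene with the highest fold change in the members, is shown from chr4:138775485-138775734, + strand, and *Cd209f*, the second in that order, from chr8:4105765-4106014, - strand. Each is written 5′ to 3′ on the strand of its gene, and the capitals mark matches to 3 short motifs.
Ccl8: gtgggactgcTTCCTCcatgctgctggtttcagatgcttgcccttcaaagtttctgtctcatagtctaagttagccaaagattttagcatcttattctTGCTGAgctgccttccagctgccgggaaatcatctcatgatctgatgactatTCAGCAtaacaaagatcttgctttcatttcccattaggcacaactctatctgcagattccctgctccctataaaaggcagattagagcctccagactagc
Ccl12: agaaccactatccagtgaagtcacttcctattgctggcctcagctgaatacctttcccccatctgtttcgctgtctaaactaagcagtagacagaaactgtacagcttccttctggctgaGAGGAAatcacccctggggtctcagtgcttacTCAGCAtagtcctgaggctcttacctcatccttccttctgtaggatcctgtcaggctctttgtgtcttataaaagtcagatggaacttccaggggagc
Pla2g2d: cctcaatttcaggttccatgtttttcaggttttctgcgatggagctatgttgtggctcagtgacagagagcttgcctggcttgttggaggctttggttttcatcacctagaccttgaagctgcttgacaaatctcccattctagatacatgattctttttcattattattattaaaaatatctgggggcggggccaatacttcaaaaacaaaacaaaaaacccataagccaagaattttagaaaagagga
Cd209f: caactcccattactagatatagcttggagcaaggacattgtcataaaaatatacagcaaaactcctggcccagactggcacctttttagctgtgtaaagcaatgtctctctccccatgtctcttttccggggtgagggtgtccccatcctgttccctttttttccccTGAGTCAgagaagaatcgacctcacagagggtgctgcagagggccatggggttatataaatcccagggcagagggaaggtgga

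The motifs, searched on both strands, were GAGGAA (the core letters bound by PU.1, a factor of the myeloid lineage), TGCTGA (letters of the recognition element of MAF factors) and TGANTCA (the AP-1 site). They do not overlap in these windows. Counted back from the start, the *Ccl8* window held GAGGAA on the other strand (read as TTCCTC) at bases -240 to -235, TGCTGA at -152 to -147, and TGCTGA on the other strand (read as TCAGCA) at -100 to -95. The *Ccl12* window held GAGGAA at -130 to -125 and TGCTGA on the other strand at -98 to -93, that of *Cd209f* an AP-1 site at -83 to -77, and that of *Pla2g2d* none of the 3. Over 27025 windows of the same length, 23.1% held GAGGAA, 15.8% TGCTGA and 6.87% TGANTCA. Such short matches are a description of the letters and not of binding.

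C1q-rich cells, meaning those that passed all limits on C1q and *Cd3* genes, numbered 1340. Besides the 304 members and the 408 *Trem2* *Cd72* macrophages, 479 held UMIs of both gene pairs and 149 of neither. The pairs were therefore not exclusive of each other. As a cell with more UMIs has more chances to show a gene of each pair, every C1q-rich cell was thinned to 3000 UMIs, which left out 555 shallower cells. Of the 785 cells left, 56.9% then held *Mrc1* or *Cd163*, 59.7% held *Trem2* or *Cd72*, and 33.4% held both, where 34.0% would hold both if the pairs were independent. Median depth was 3110.0 UMIs in members, 3111.5 in *Trem2* *Cd72* macrophages, 3710.0 in cells with both pairs and 3011 in cells with neither, so the members and the comparison class had nearly the same median depth. Of the 304 members, 16.1% rested on a single UMI of *Mrc1* or *Cd163*, and the median was 4.

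Cells just inside and just outside the limits are compared here by the summed level of *Ccl8*, a chemokine gene that the rule did not use. It was 1984 CPM in the 51 members with 10 to 14 C1q UMIs and 596 CPM in the 35 cells that had 5 to 9 C1q UMIs but otherwise met the rule. Members with 1 UMI of *Mrc1* and *Cd163* (49 cells) had 1490.0 CPM of *Ccl8*, and members with 2 or more (255 cells) had 3501 CPM. C1q-rich cells with neither pair had 252 CPM. The 212 cells with *Mrc1* or *Cd163* and a single UMI of *Trem2* or *Cd72*, which the rule put outside, had 1574 CPM. Cells on the outer side of these limits held less *Ccl8* than the members as a whole, at 3194 CPM, but were not without it. Of the 3484 *Ccl8* UMIs of all members, 1 cell held 611. The 212 outer cells with a single UMI of *Trem2* or *Cd72* held slightly more than the 49 members with 1 UMI of *Mrc1* and *Cd163*. The values thus show no clear separation at that limit. Another 11 cells met every limit but that on *Cd3* genes.

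Members made up a small and very uneven part of the tissue. Their share of all cells of a mouse was lowest at 0.0520%, had a median of 1.51% and was highest at 6.56% over the 23 mice. As a share of C1q-rich cells they were steadier, from 12.7% to 31.7% with a median of 22.0% over the 22 mice with at least 10 such cells. The number of C1q-rich cells in a suspension moved with the first share. They were 15.6 ± 4.79% of cells (mean and SD) over the 10 aging pool mice and 7.71 ± 2.85% over the 8 diet pool mice. They were 1.07 ± 0.267% in Young and Old and 0.307 ± 0.172% in Ctrl3, HF3 and LP3, the libraries with the fewest members per cell.

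Between strains, members were 3.83 ± 1.73% of all cells in C57BL/6J (SD, n = 10) and 1.05 ± 1.05% in FVB/NJ mice (SD, n = 13), a difference with p = 0.00024 in a two-sided permutation test and 0.00192 after adjustment over 8 share tests. Without Young and Old the difference was 2.65 percentage points (p = 0.00064, adjusted p = 0.00512, same permutation test), beside 2.79 with them. Within FVB/NJ, the mean share was 1.61 ± 0.976% over the 8 pooled mice (SD), 0.274 ± 0.109% in Young and Old and 0.0592 ± 0.0105% in Ctrl3, HF3 and LP3, so that libraries of 1 strain were far apart too. Of C1q-rich cells, members were 23.8 ± 6.11% in C57BL/6J (SD, n = 10) and 20.3 ± 5.64% in FVB/NJ (SD, n = 12), with p = 0.172 in the permutation test and 0.69 after adjustment, or 0.105 and 0.421 without Young and Old. No difference beyond the spread between mice was detected on this scale.

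Age, rapamycin and diet gave no detected difference in either share. In the aging pool, members were 3.24% of cells at 3 months (n = 2) and 3.98% at 20 and 28 months (n = 8), with p = 0.556 in an exact two-sided permutation test whose smallest possible p was 0.0222. They were 23.2% and 24% of C1q-rich cells at these ages (exact permutation p = 0.889). Neither direction was stable. The difference of young minus older mice in percentage points of C1q-rich cells was -0.82, but 8.26 with cells thinned to 3000 UMIs, -8.13 without Y1 and 6.5 without Y2. In the share of all cells it was -2.57 without Y1 and 1.09 without Y2. At 20 and 28 months, members were 4.15% of cells with rapamycin and 3.81% without (n = 4 each, exact permutation p = 0.944), a design that cannot go below 0.0556, and this difference changed sign with at least 20 C1q UMIs per cell. Over the 4 diets of the diet pool the F statistic was 0.409 for the share of cells, with exact permutation p = 0.838, and 0.155 for the share of C1q-rich cells, with exact p = 0.943. All 6 adjusted p-values of these contrasts were 0.944.

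**Figure D1:**
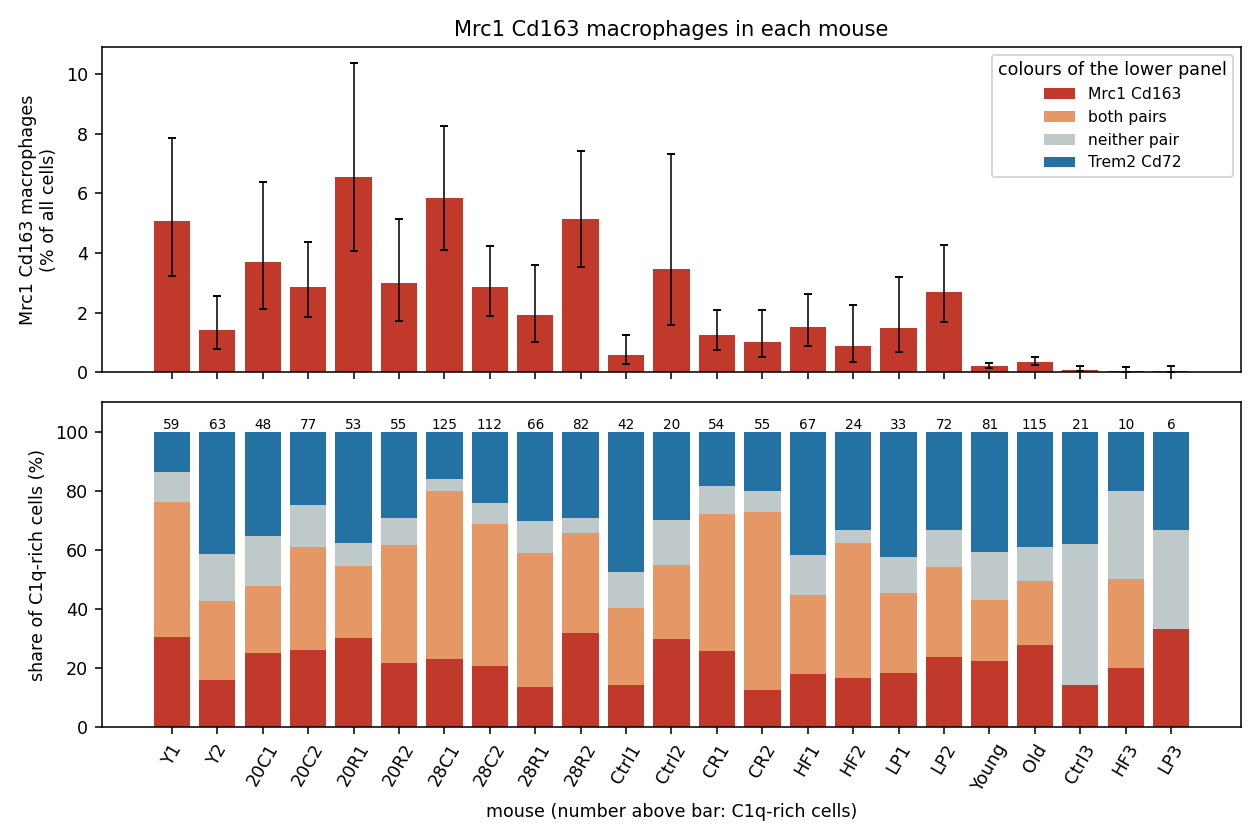
Upper panel: members as a percent of all cells of each of the 23 mice (vertical axis), as bars with 95% Wilson intervals that cover counting error only. Lower panel: the 4 classes of C1q-rich cells as percents of C1q-rich cells of each mouse, with the number of C1q-rich cells above each bar. The share of all cells fell from several percent in most mice of the aging pool to 0.0592 ± 0.0105% (SD) in Ctrl3, HF3 and LP3, while the share of C1q-rich cells was of similar size in the pools.

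Members were compared with the *Trem2* *Cd72* macrophages of the same animals only. Cells with both pairs, which shared many of the traits below with the members, were left out of this contrast. Its differences are therefore not particular to the members among all C1q-rich cells. Members carried far more RNA of the chemokines *Ccl8*, *Ccl7* and *Ccl2*, of the coagulation factor gene *F13a1*, of the secreted phospholipase gene *Pla2g2d* and of endocytic receptors such as *Folr2*, *Lyve1* and *Cd209f*. The *Trem2* *Cd72* macrophages carried more RNA of the lysosomal protease gene *Ctss*, of the signalling gene *Rgs1*, of the elastase gene *Mmp12*, of the fusion gene *Dcstamp* and of *Il1b* and *Il12b*. Of 14 general macrophage genes, 3 were higher, 2 were lower and 9 did not pass the test, among them *Adgre1* (log2 fold change 0.07 ± 0.28, SE), *Cd68* (0.03 ± 0.17) and *Fcgr1* (-0.05 ± 0.24). UMIs were summed per mouse and class in the 13 mice with at least 10 cells of both, 8 C57BL/6J and 5 FVB/NJ, and tested by quasi-likelihood in edgeR, with a block for each mouse and p-values adjusted by Benjamini-Hochberg over all genes tested. Of 2036 genes tested, 222 (10.9%) were higher and 198 (9.72%) lower in members at an adjusted p under 0.05, or 20.6% in all, and the median log2 fold change of all genes was -0.03. The counts of called genes in each list below stand beside these shares. Fold changes are given as log2 of members over *Trem2* *Cd72* macrophages with their standard error (SE), all adjusted p-values of this contrast are from that edgeR test, and the study had named *Ccl8*, *Ccl7*, *Bmp2*, *Ctsd* and *Tgfbr1* from these same cells, so their directions are not independent evidence.

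**Figure D2:**
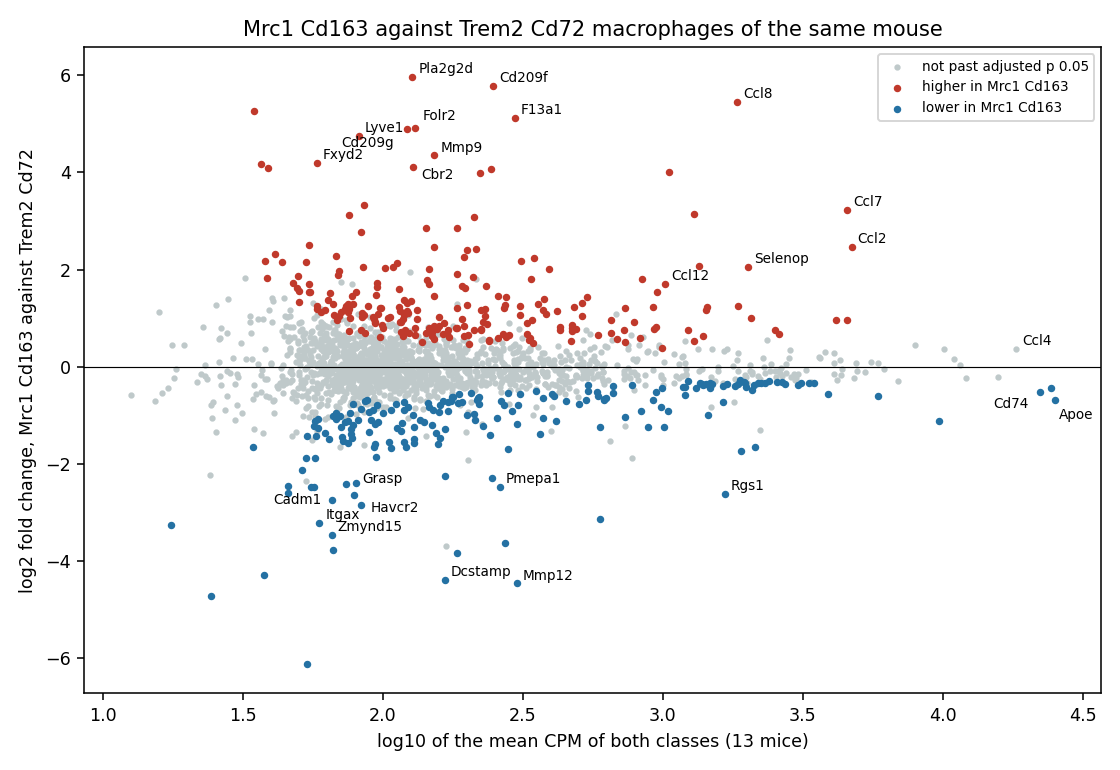
Log2 fold change of members over *Trem2* *Cd72* macrophages (vertical axis) against the log10 of the mean CPM (horizontal axis) for the 2036 genes tested, 1 point per gene, with genes at an adjusted p under 0.05 coloured. The highest 5 points are *Pla2g2d*, *Cd209f*, *Ccl8*, *Cd209d* and *F13a1*. The lowest 2, *Prg4* and *Cd5l*, named after their values were seen, had 0 UMIs in members and came from 2 mice of the comparison class.

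*Ccl7* and *Ccl2* were the most abundant of the higher genes. Of 18 chemokine genes tested of 19 listed, 10 were higher and 3 lower in members, with a median log2 fold change of 1.36 against -0.03 for all genes. The level of *Ccl8* in members of the 13 mice was 589, 1838 and 12536 CPM at the lowest, median and highest, against 0, 39.6 and 215 CPM in the *Trem2* *Cd72* macrophages. Every mouse was far higher in its members and the classes did not overlap (5.45 ± 0.36, adjusted p = 8.94e-09). The highest value was that of Young, and the next was 8432 CPM in 28C2. Single cells carried much of it, as 1 member with 611 *Ccl8* UMIs held 85% of those of 28C2, and 1 with 191 held 95.5% of those of Y2. Without the member with most *Ccl8* in each mouse, an alternative chosen after seeing the data, the level was 254, 1008 and 9975 CPM at the lowest, median and highest, which was higher than in the *Trem2* *Cd72* macrophages in 13 of 13 mice and again without overlap. *Ccl7* was at 3023, 8138 and 17758 CPM in members and 151, 705 and 3531 CPM in the other class (3.23 ± 0.37, adjusted p = 8.15e-06), higher in members of 13 of 13 mice. *Ccl2*, the classical monocyte attractant, was at 2049, 7306 and 12866 CPM and at 312, 1415 and 3530.1 CPM (2.46 ± 0.30, adjusted p = 1.54e-05), again higher in 13 of 13 mice though the classes overlapped in range. *Ccl12* differed least of these 4 genes, at 609.8, 1477 and 2736 CPM in members and 125, 438 and 936 CPM in the other class (1.71 ± 0.27, adjusted p = 0.000247), and was higher in members of 12 of 13 mice.

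Of the other chemokines, *Pf4* (platelet factor 4) was at 491, 2293 and 5255 CPM in members and 0, 241 and 2339 CPM in the comparison class (3.15 ± 0.48, adjusted p = 0.000206), and the eosinophil attractant *Ccl24* at 127, 387 and 1437 CPM and 0, 0 and 159 CPM (4.07 ± 0.61, adjusted p = 0.00015). *Ccl6* (1.80 ± 0.40), *Ccl9* (1.46 ± 0.41), *Cxcl1* (1.01 ± 0.28) and *Cxcl10* (1.26 ± 0.23) were also higher. The 3 lower genes were *Cxcl9* (-2.59 ± 0.78), *Cxcl14* (-1.87 ± 0.54) and *Cxcl16* (-0.69 ± 0.15), the last of which encodes a membrane-bound ligand of CXCR6. The chemokine genes *Ccl3* (0.31 ± 0.24, adjusted p = 0.43), *Ccl4* (0.36 ± 0.23, adjusted p = 0.319) and *Ccl5* (-0.03 ± 0.25, adjusted p = 0.966) did not pass the test, so the differences lay in some chemokines and not in all. Of 7 receptor genes for chemokines, 3 could be tested and *Cx3cr1*, the fractalkine receptor gene, was lower in members (-1.60 ± 0.33, adjusted p = 0.00253).

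The list of genes known from tissue-resident macrophages was higher almost throughout, with 20 of 25 tested genes (26 listed) higher, none lower, and a median log2 fold change of 3.09. *Pla2g2d*, outside this list, had the highest fold change of the genes named by rule. Members held 44.7, 209.7 and 676 CPM, and the comparison class held 0 CPM in 10 of 13 mice and at most 15.0 CPM (5.97 ± 0.29, adjusted p = 2.29e-10), without overlap. *F13a1*, the A subunit of coagulation factor XIII, was at 156, 585 and 1527 CPM in members and at 0, 9.90 and 43.1 CPM in the other class (5.12 ± 0.32, adjusted p = 5.87e-09), again without overlap. *Folr2*, a folate receptor, was at 22.3, 221 and 492 CPM in members and at 0 CPM in 9 of 13 mice in the other class (4.91 ± 0.41, adjusted p = 2.09e-07). The hyaluronan receptor gene *Lyve1* was at 25, 121 and 416 CPM in members and at 0 CPM in 9 mice in the other class (4.74 ± 0.48, adjusted p = 2.21e-06). Both were higher in members of every mouse, though their ranges overlapped where members were lowest.

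*Selenop*, which encodes a selenium transport protein, was the most abundant gene of the resident macrophage list at 1876, 3139.6 and 5384 CPM in members and 407, 737 and 1195 CPM in the comparison class (2.05 ± 0.15, adjusted p = 6.97e-08), without overlap. The lectin genes *Cd209f* (5.78 ± 0.47, adjusted p = 2.09e-07) and *Cd209g* (4.88 ± 0.42, adjusted p = 4.31e-07) were higher in 12 of 13 mice, and in mouse 20C1 both were at 0 in both classes. Another gene of that family, *Cd209d*, had 68 UMIs in members and 0 in the other class, which against a floor of 3 UMIs over the group was at least 28.8-fold higher, and the list median was again 3.09 with this gene at that bound. *Clec10a* (3.98 ± 0.41) and *Mgl2* (2.46 ± 0.28), lectins that bind galactose, *Fcna* (3.09 ± 0.88), *Retnla* (4.01 ± 0.93), *Gas6* (2.86 ± 0.32), *Igf1* (2.03 ± 0.42), *Maf* (1.85 ± 0.27), *Stab1* (1.69 ± 0.26) and *Wwp1* (2.14 ± 0.22) were all higher. *Ltc4s*, *Ninj1*, *Slco2b1* and *Timd4* were among those that did not pass the test, with values of 1.07 ± 0.48, 0.56 ± 0.20, 0.49 ± 0.38 and 1.04 ± 0.86.

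Genes that were also named by size of change were *Mmp9*, *Fxyd2* and *Cbr2*. *Mmp9*, a gelatinase, was at 47.6, 199.9 and 648 CPM in members and at 0 CPM in 9 of 13 mice in the other class (4.35 ± 0.43, adjusted p = 1.51e-06). *Fxyd2*, a regulator of the sodium pump, was at 37.1, 121 and 212 CPM in members and at most 23.4 CPM in the other class (4.20 ± 0.48, adjusted p = 7.42e-06), and the carbonyl reductase gene *Cbr2* was at 22.3, 256 and 414 CPM (4.10 ± 0.38, adjusted p = 6.42e-07). All 3 were higher in members of every mouse. In the list of scavenger and endocytic receptors, 8 of 12 tested genes (15 listed) were higher and 1 lower, with a median of 1.67. Besides genes already named these were *Cd36* (1.27 ± 0.32), *Clec4n* (2.78 ± 0.44) and *Fcgrt* (1.65 ± 0.28), the neonatal Fc receptor gene. The lower one was *Cd5l*, with 0 UMIs in members and 78 UMIs in the other class, all from 2 mice.

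Complement genes other than C1q, which the rule used, were higher or did not pass the test. Of 8 tested of 13 listed, 5 were higher and 0 lower, with a median log2 fold change of 1.61. Among them were the central component *C3* (2.06 ± 0.47, adjusted p = 0.00524), *C4b* (2.85 ± 0.63, adjusted p = 0.00384), the positive regulator *Cfp* (2.26 ± 0.47, adjusted p = 0.00272) and the receptor gene *C5ar1* (1.43 ± 0.27, adjusted p = 0.0011). Among growth factor genes, 4 of 11 tested (14 listed) were higher and 0 lower, with a median of 0.47. These were *Bmp2* (2.43 ± 0.33, adjusted p = 6.09e-05), a ligand of the BMP pathway, *Igf1*, *Hbegf* (1.90 ± 0.35, adjusted p = 0.00089), a ligand of the EGF receptor, and *Grn* (0.74 ± 0.19, adjusted p = 0.0118). In both lists no gene was called lower.

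The list of lysosome and lipid genes of *Trem2*-type macrophages had 9 of 20 tested genes (22 listed) lower (beside 9.72% of all genes) and 2 higher, with a median of -0.58. *Ctss*, the cathepsin that trims the MHC class II invariant chain, was at 414, 936 and 1466 CPM in members and 1889.7, 2950.5 and 3925 CPM in the comparison class (-1.74 ± 0.19, adjusted p = 4.54e-06), without overlap. *Mmp12*, the macrophage elastase, was at 0 CPM in members of 10 of 13 mice and at 10.8, 502 and 1984 CPM in the other class (-4.46 ± 0.43, adjusted p = 1.32e-06). Others were *Apoe* (-0.68 ± 0.16), *Cd9* (-1.35 ± 0.29), *Ctsz* (-0.91 ± 0.14), *Npc2* (-0.44 ± 0.10), *Itgax* (-3.21 ± 0.49) and the TGF-β receptor gene *Tgfbr1* (-2.24 ± 0.27). *Ctsb* (0.67 ± 0.14) and the lipid droplet gene *Plin2* (0.89 ± 0.24) went the other way and were higher in members, and *Ctsd* (-0.38 ± 0.25, adjusted p = 0.334) did not pass.

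Of the remaining genes named for the size of their difference, *Dcstamp*, needed for fusion of macrophages and osteoclasts, was at 0 CPM in members of 7 mice and at 32.8, 163 and 1096 CPM in the other class (-4.39 ± 0.35, adjusted p = 1.32e-07). *Rgs1*, a regulator of G protein signalling, was at 181, 375 and 1317 CPM in members and 2010.5, 2721 and 3654 CPM in the other class (-2.62 ± 0.27, adjusted p = 2.21e-06), without overlap. *Zmynd15* (-3.47 ± 0.40), the inhibitory receptor gene *Havcr2* (-2.84 ± 0.38), *Cadm1* (-2.75 ± 0.51), *Grasp* (-2.63 ± 0.44) and *Pmepa1* (-2.48 ± 0.29) were lower as well. Among inflammatory cytokines and regulators, 13 tested of 16 listed, *Il1b* (-1.65 ± 0.27, adjusted p = 0.000368), *Il1a* (-1.24 ± 0.30, adjusted p = 0.00666) and *Il12b* (-3.78 ± 0.66, adjusted p = 0.00128) were lower and *Il6* (2.06 ± 0.42, adjusted p = 0.00231) was higher, while *Tnf* (0.29 ± 0.25, adjusted p = 0.481) did not pass. The median of the list was 0.13, so its genes did not move together.

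Genes of MHC class II antigen presentation were lower or did not pass the test. Of 8 tested (10 listed), 4 were lower, beside 9.72% of all genes, and 0 were higher. The median was -0.54, near the -0.58 of the lysosome list, and 0 of the 8 had a positive fold change. The lower ones were *Cd74* (-0.53 ± 0.12, adjusted p = 0.00382), which encodes the invariant chain, *H2-Ab1* (-0.59 ± 0.14), *H2-DMa* (-0.55 ± 0.16) and *H2-DMb1* (-0.70 ± 0.22), while *H2-Aa* (-0.29 ± 0.13, adjusted p = 0.149) and *H2-Eb1* (-0.27 ± 0.18, adjusted p = 0.349) did not pass the test. The efferocytosis list, genes for uptake of dying cells, was mixed, with *Gas6* and *Abca1* (0.59 ± 0.19) higher and *Axl* (-0.72 ± 0.24), *Havcr2* and *Itgb5* (-1.64 ± 0.28) lower of 8 tested (13 listed, median -0.24). Of 8 genes of heme and iron handling tested (12 listed, median 0.39), the biliverdin reductase gene *Blvrb* (1.05 ± 0.19) was higher and the ferritin gene *Fth1* (-0.43 ± 0.10) lower, and *Hmox1* did not pass the edgeR test (0.62 ± 0.30, adjusted p = 0.175). Of all genes, 10.9% were higher and 9.72% lower, so 1 call each way of 8 was near these shares.

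Interferon response genes had 5 of 11 tested (14 listed) higher and 1 lower, beside 10.9% higher and 9.72% lower of all genes, with a median of 0.64. The higher ones were *Ifi204*, *Ifit1* (1.81 ± 0.45), *Ifitm3* (0.92 ± 0.19), *Isg15* and *Rsad2*, and the lower one was *Bst2* (-0.78 ± 0.17). Of 19 immediate early and dissociation stress genes, *Egr1*, *Ier3* (1.54 ± 0.25), *Jund* and *Zfp36* were higher and *Btg2* lower, with a median of 0.28. These 4 and 1 genes of 19 stand beside the same 10.9% and 9.72% of all genes. What part tissue dissociation had in them was not tested. Monocyte genes (4 tested of 12) and proliferation genes (4 tested of 10) had none called, with medians of -0.13 and -0.22 in the edgeR test. The called general macrophage genes were *Csf1r* (0.86 ± 0.15, adjusted p = 0.000453), *Lyz2* and *Sirpa*, which were higher, and *Aif1* and *Tyrobp* (-0.99 ± 0.12), which were lower, with a list median of -0.01.

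**Figure D3:**
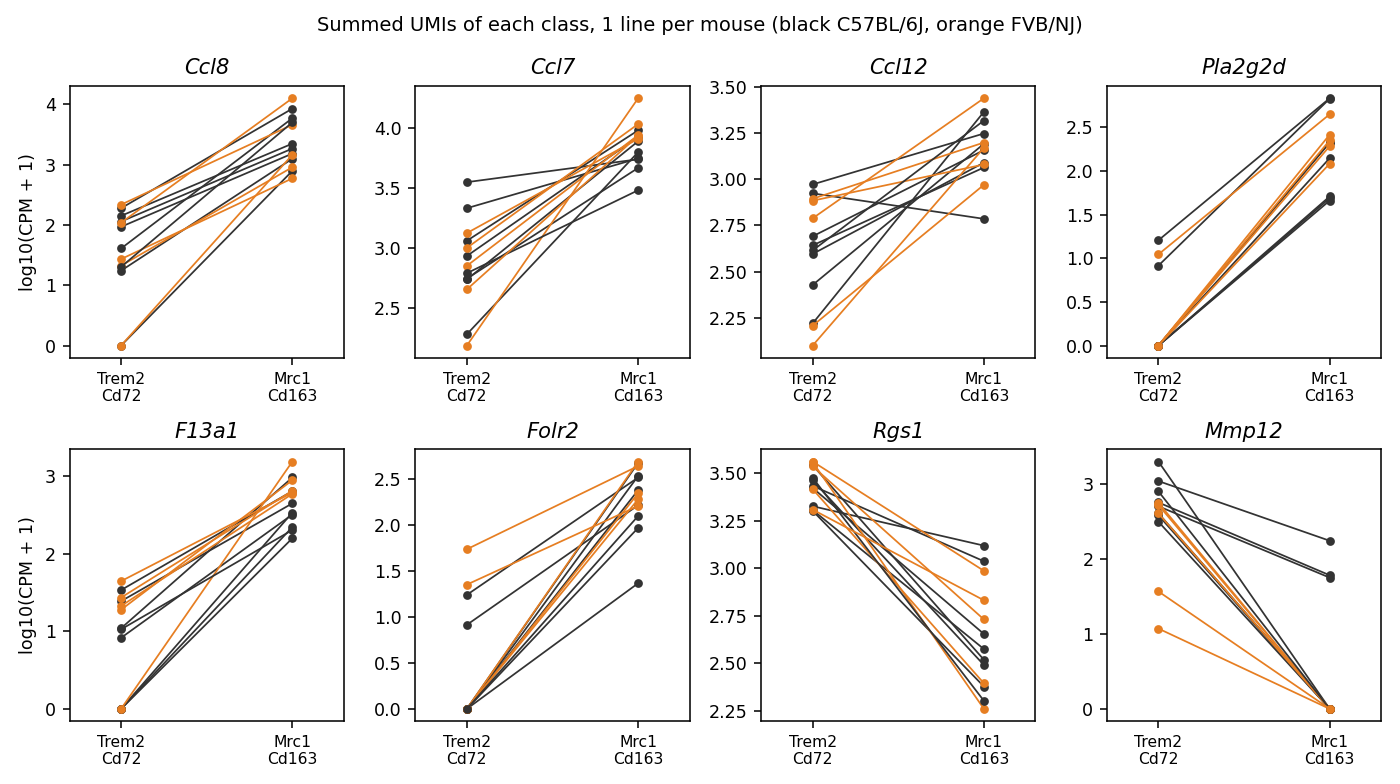
Level of 8 genes in the *Trem2* *Cd72* macrophages and in the members of the same mouse, as log10 of CPM plus 1 (vertical axis), 1 line per mouse for 13 mice, black for C57BL/6J and orange for FVB/NJ. The lines of *Ccl8*, *Ccl7*, *Pla2g2d*, *F13a1* and *Folr2* rise and those of *Rgs1* and *Mmp12* fall in every mouse, while *Ccl12* rises in 12 of 13.

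All 420 genes had the same direction under DESeq2 and under library size scaling. In the 8 mice of the aging pool alone, 202 of the 222 higher and 185 of the 198 lower genes could be tested, all in the same direction, and 96 and 58 of them passed the edgeR test there. In the 5 FVB/NJ mice, 171 and 143 could be tested, again all in the same direction, and 55 and 24 passed. Without Young and Old, 217 and 195 were tested, all in the same direction, and 188 and 147 passed. In the 3 mice of the diet pool, 153 and 134 were tested and 70 and 27 passed, and all but *Ccrl2* had the same direction. *Ccrl2*, an atypical chemokine receptor gene named after its value was seen, had a log2 fold change of -0.69 in all mice and 0.21 ± 0.29 there (adjusted p = 0.671, edgeR). In the aging pool *Ccl8* had a log2 fold change of 5.40 and in FVB/NJ of 5.59. For *F13a1* these were 5.14 and 5.10, and for *Rgs1* -2.51 and -2.77. A test of the difference itself (the interaction of class and strain in edgeR) called 0 of 2036 genes, with 129 at an unadjusted p under 0.05, a lowest adjusted p of 0.187 and 1 gene called by DESeq2.

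Cells with UMIs of both pairs lay between the classes in *Ccl8*, *F13a1*, *Rgs1* and *Selenop*. Over mice with at least 10 cells of a class, *Ccl8* was at 3436 ± 3514 CPM in members (SD, n = 14), 1813 ± 1351 CPM in cells with both pairs (SD, n = 18), 469 ± 484 CPM in cells with neither (SD, n = 5) and 60.8 ± 68.9 CPM in *Trem2* *Cd72* macrophages (SD, n = 17). Without the member with most *Ccl8* in each mouse, the level in members was 2035 ± 2655 CPM (SD, n = 14). *F13a1* followed the same order, at 588 ± 368, 383 ± 192, 40.2 ± 30.3 and 14.7 ± 17.6 CPM (SD, same n). *Rgs1* had the opposite order, at 528 ± 358, 839.7 ± 513, 1531 ± 852 and 2669.6 ± 706 CPM. The level of *Selenop* fell less steeply, at 3163 ± 983, 2614 ± 702, 926 ± 471 and 778 ± 243 CPM. Without Young and Old, *Ccl8* was at 2583 ± 2481 CPM in members (SD, n = 12), 1516 ± 1036 CPM with both pairs (SD, n = 16), 123 ± 116 CPM with neither (SD, n = 3) and 47.4 ± 58.1 CPM in *Trem2* *Cd72* macrophages (SD, n = 15), and *F13a1*, *Rgs1* and *Selenop* were at 562 ± 389, 539 ± 377 and 3233 ± 1023 CPM in members. The rule genes themselves were at 1215 ± 361 CPM (*Mrc1*) and 218 ± 119 CPM (*Cd163*) in members and at 1022 ± 178 and 148 ± 107 CPM in cells with both pairs. The spread between mice was wide in each class, and no test was run between these 4 classes.

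The share of cells in which a UMI of a gene was found differed widely between genes. It rises with the level of a gene and with depth, so a cell with 0 UMIs may still carry the gene. Each cell was thinned to 1500 UMIs, which left out 37 members, and the share of cells with at least 1 UMI was counted. Collagen-rich cells, chosen to hold no UMI of C1q or *Ptprc*, are given beside them as a cell type that should lack macrophage genes. As this choice left out cells with such RNA, their shares can lie below the level of free RNA or uptake. *Selenop* was found in 92.1% of 267 members, *Ccl2* in 86.9% and *Ccl7* in 80.5%. In the same order, 56.0%, 46.7% and 28.8% of 1382 collagen-rich cells also held them, so for these 3 genes the collagen-rich cells are no empty background. *Ccl8* was found in 48.7% (95% Wilson interval 42.8 to 54.7%) of members and 60.2% before thinning. It was found in 40.3% of cells with both pairs, 5.49% of *Trem2* *Cd72* macrophages and 0.579% of collagen-rich cells, so its share in members was far above that of the collagen-rich cells. *Ccl12* was found in 56.4% of cells with both pairs, 55.8% of members and 27.7% of *Trem2* *Cd72* macrophages. Without Young and Old, 244 members were left, of which 91.8% held *Selenop*, 79.9% *Ccl7*, 47.1% *Ccl8*, 86.1% *Ccl2* and 55.7% *Ccl12*. In the 734 collagen-rich cells left, 0.954% held *Ccl8*, 38.8% *Ccl7*, 56.8% *Ccl2* and 47.7% *Selenop*. The share of the first 3 was higher and that of *Selenop* lower than with Young and Old. Of these shares only that of *Ccl8* was low, as many collagen-rich cells held the other genes, and it too can lie below the level of free RNA.

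The shares of other genes in members varied. *Pf4* was in 73.4%, *F13a1* in 46.1% (95% Wilson interval 40.2 to 52.1%), *Clec10a* in 39.3%, *Cd209f* in 25.1%, *Folr2* in 21.7%, *Retnla* in 19.9%, *Pla2g2d* in 18.4% and *Lyve1* in 17.6%. In the *Trem2* *Cd72* macrophages the shares were 13%, 1.45%, 2.89%, 0.578%, 0.289%, 1.45%, 1.45% and 0.289% in that order. In cells with both pairs the shares were 63.0%, 30.8%, 25.1%, 14.5%, 16.7%, 10.8%, 14.3% and 10.4% in that order. For each gene this lay between the members and the *Trem2* *Cd72* macrophages. Outside Young and Old they were 74.2%, 45.5%, 37.7%, 23%, 21.7%, 19.7%, 18.9% and 17.6% in members and 12.3%, 1.26%, 2.83%, 0%, 0%, 1.26%, 1.57% and 0.314% in *Trem2* *Cd72* macrophages, in the same order of genes. For *Cd209f* and *Folr2* this was 0 of 318 *Trem2* *Cd72* macrophages, which allows a share of up to 0.943%, and each of the 8 genes was again in more of the members. Before thinning the shares were higher, with *F13a1* in 59.9% of members and 3.19% of *Trem2* *Cd72* macrophages, *Clec10a* in 50.7% and 6.13%, and *Pla2g2d* in 30.9% and 1.47%. *Mmp12* was found in 2.62% of members and 20.8% of *Trem2* *Cd72* macrophages, and *Dcstamp* in 2.25% and 28.9%. Cells with both pairs were near the members, with *Mmp12* in 2.20% and *Dcstamp* in 3.30%. Within members the top 10% of cells by UMIs of the gene held 73.5% of all *Ccl8* UMIs and 87.1% of those of *Retnla*, but 37.4% of those of *Ccl7*. The highest cell, of mouse 28C2, held 611 *Ccl8* UMIs. The proliferation gene *Mki67* was found in 6.74% of members and 3.47% of *Trem2* *Cd72* macrophages, and the monocyte receptor gene *Ccr2* in 1.5% and 1.16%. Outside Young and Old these were 7.38% and 3.14%, and 1.64% and 1.26%, while *Mmp12* was in 2.87% and 22.6% and *Dcstamp* in 2.46% and 29.6%.

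**Figure D4:**
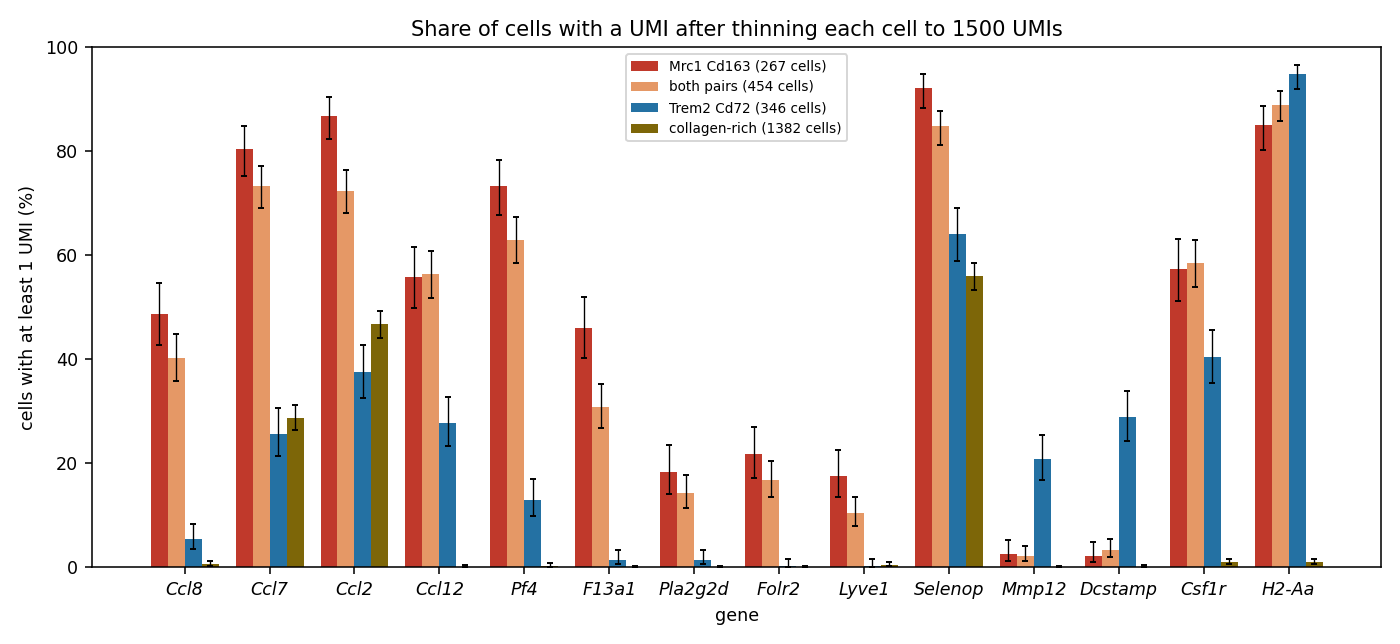
Bars of the percent of cells with at least 1 UMI (vertical axis) for 14 genes (horizontal axis) after thinning each cell to 1500 UMIs, in members, cells with both pairs, *Trem2* *Cd72* macrophages and collagen-rich cells, with 95% Wilson intervals. Cells with both pairs sit close to the members for *Ccl12* and below them for *Ccl8* and *F13a1*, and the share for *Mmp12* and *Dcstamp* is highest in the *Trem2* *Cd72* macrophages.

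The members were not uniform. Spearman correlations over the 267 thinned members, which share libraries and depth and are given as a description, were highest for the pair of MHC class II genes *Cd74* and *H2-Aa* (0.86), for *Ccl3* and *Ccl4* (0.78) and for *Ccl2* and *Ccl7* (0.72), and *Lyve1* went with *Retnla* (0.53), *Folr2* (0.49) and *F13a1* (0.48). *Ccl8* and *Ccl7*, which both mark the members, had a correlation of 0.07, or 0.03 without Young and Old, 0.02 in the aging pool and 0.22 in FVB/NJ. *Cd74* ran against *F13a1* (-0.44) and *H2-Aa* against *Lyve1* (-0.41). In the 244 members outside Young and Old the correlation was 0.84 for *Cd74* with *H2-Aa*, 0.78 for *Ccl3* with *Ccl4*, 0.71 for *Ccl2* with *Ccl7*, 0.58, 0.50 and 0.49 for *Lyve1* with *Retnla*, *Folr2* and *F13a1*, -0.45 for *Cd74* with *F13a1* and -0.43 for *H2-Aa* with *Lyve1*. The correlation of *Ccl2* with *Ccl7* was 0.71 in the 171 cells of the aging pool and 0.68 in the 96 of FVB/NJ. The 47 members with a *Lyve1* UMI, from 16 mice, held a median of 1 UMI of *H2-Aa* and 6 of *Cd74* per 1500, and the 220 without, from 23 mice, 12 and 33.5. *F13a1* was found in 89.4% of the first and 36.8% of the second, *Folr2* in 63.8% and 12.7%, and *Retnla* in 63.8% and 10.5%. *Ccl8* differed less, at 61.7% and 45.9%. Among cells outside Young and Old, 43 members with and 201 without a *Lyve1* UMI were left, with medians of 1 and 12 UMIs of *H2-Aa*, *F13a1* in 88.4% and 36.3%, and *Ccl8* in 58.1% and 44.8%. Members with a *Lyve1* UMI thus held less MHC class II RNA, a split that was chosen after its values were seen and not tested.

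Members and cells with both pairs together held much of the captured RNA of several secreted products and receptors. In the aging pool, members were 3.49% of cells and held 41.4% of the *Ccl8* UMIs (2600 of 6283), and cells with both pairs were 5.98% of cells and held 49.8%. In the diet pool, members were 1.36% of cells and held 29.6%. In Young and Old they were 0.274% of cells and held 54.0%, and in the single libraries of Ctrl3, HF3 and LP3 0.0596% and 24.1% (7 of 29 UMIs). The part of the cells that members made up thus differed far more between libraries than their part of the *Ccl8* UMIs. Over all 23 mice, of which the aging pool gave 6283 of 8233 *Ccl8* UMIs, members and cells with both pairs held 42.3% and 45.8% of *Ccl8*, 49.2% and 41.8% of *Cd209f*, 46.6% and 32.4% of *Retnla* and 43.3% and 42.2% of *Pla2g2d*. Cells with both pairs held the larger part of *F13a1* (38.6% and 48.6%), *Ccl24* (36.2% and 45.7%), *Folr2* (34.9% and 41.8%), *Pf4* (31.6% and 47.5%) and *Ccl12* (27.7% and 46.4%), over all mice and in each of the 2 pools. In Young and Old the order was the reverse for these 5 genes, with 47.0% and 31.8% for *F13a1*, 43.6% and 37.8% for *Ccl24*, 40.0% and 26.7% for *Folr2*, 41.9% and 27.1% for *Pf4* and 33.2% and 26.5% for *Ccl12*. Cells with both pairs were 0.230% of cells there, fewer than the members, and 2.52% in the diet pool, more than the members. For these 5 genes the class with more UMIs was thus also the class with more cells, in the pools and in Young and Old. The larger part was in cells with both pairs also for *Cd209f* in the aging pool (45.2% and 46.6%) and *Pla2g2d* in the diet pool (40.8% and 52.9%), so which class held more varied with the library. Members held 16.3%, 18.6%, 29.7% and 1.02% of *Ccl7* in the aging pool, the diet pool, Young and Old, and the single libraries of Ctrl3, HF3 and LP3, in that order, and 5.40%, 7.32%, 14.3% and 0.400% of *Ccl2*. Their part of *Selenop* was 15.3%, 11.4%, 2.17% and 0.467% in the same order, that of *Lyve1* 3.08%, 6.89%, 1.46% and 0% and that of *Igf1* 2.41%, 0.708%, 0.480% and 0%. The parts of these 5 genes thus differed several-fold between sets of libraries, with 0 of 173 *Lyve1* UMIs (up to 1.73% allowed) and 0 of 3911 *Igf1* UMIs (up to 0.0767%) in members of Ctrl3, HF3 and LP3, and Young and Old gave 11912 of the 38995 *Selenop* UMIs. These are shares of cells that were captured, which need not match the tissue.

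Age was tested in the 9 mice of the aging pool with at least 10 members, as a linear trend over 3, 20 and 28 months with rapamycin as covariate. The chemokine and resident macrophage genes showed no trend that passed the test. edgeR called 0 of 1130 genes (0%), with 61 at an unadjusted p under 0.05 and a lowest adjusted p of 0.259, and DESeq2 called 5. For *Ccl8*, members of Y1 and Y2 held 1164 and 4997 CPM, the 4 mice of 20 months 1518, 1838, 1247 and 785 CPM (20C1, 20C2, 20R1, 20R2), and 28C1, 28C2 and 28R2 5859, 8432 and 2218 CPM. Mice of 1 age differed by several-fold, and the 28-month mice overlapped with the younger ones only through Y2. Without the member with most *Ccl8* in each mouse, the values were 681 and 254 CPM at 3 months, 549, 1400.2, 999 and 341 CPM at 20 months and 4665, 1539 and 1914 CPM at 28 months, in the same order of mice. The values of Y2 and 28C2 thus rested mostly on 1 cell each, and without the top cell of each mouse the 3 mice of 28 months lay above all 6 younger mice, which was seen afterwards and not tested. *Hmox1*, heme oxygenase, was at 414 and 175 CPM in Y1 and Y2 and between 588 and 2181 CPM in the 7 older mice. *Cxcl13*, the B cell attractant, was at 0 and 25 CPM in Y1 and Y2 and between 162 and 1841 CPM in the older mice. Both were lower in the 2 young mice than in all 7 older ones, both had the lowest adjusted p of 0.259 in the edgeR test, as did *Sva* and *Ccl22*, and they were picked out after their values were seen. Of 21 resident macrophage genes tested, 0 were called for age, with a median log2 change of 0.01 per month, and of 16 chemokine genes 0, with a median of -0.03.

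For rapamycin, 4 untreated and 3 treated mice of 20 and 28 months with at least 10 members, with Y1 and Y2 in the same fit, gave 0 called genes of 1130 in edgeR (0%), with 43 at an unadjusted p under 0.05 and a lowest adjusted p of 0.970, and 0 in DESeq2. The value of *Ccl8* was -1.74 ± 0.66 on the log2 scale (treated over untreated, SE) and that of *F13a1* -0.16 ± 0.59. *Ccl8* had the lowest value of the 16 chemokine genes tested, of which 12 had a positive value, with a median of 0.54. In the untreated mouse 28C2, 1 member held 85% of the *Ccl8* UMIs. The level of that mouse was 8432 CPM, and 1539 CPM without this member. Diet could not be tested gene by gene, as no 2 diets had 2 mice with at least 10 members. *Ccl8* in members was at 589 CPM in CR1, 1449.7 CPM in HF1 and 901 CPM in LP2 (391.8, 1008 and 682 CPM without the member with most), the mice of the diet pool with enough members, and at 12536 and 4564 CPM in Young and Old.

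Members of the strains differed in the MHC class II gene *H2-Eb1* and in *Gdpd3*, with and without Young and Old. Of 18 immediate early and stress genes tested, 9 were called with Young and Old and 3 without them, and 0 of 16 chemokine genes were called. In 9 C57BL/6J mice against CR1, HF1, LP2, Young and Old of FVB/NJ, edgeR called 44 of 821 genes (5.36%), with 26 (3.17%) higher and 18 (2.19%) lower in C57BL/6J. The MHC class II beta chain gene *H2-Eb1* was at 3479, 5923 and 8162 CPM in C57BL/6J at the lowest, median and highest. In FVB/NJ it was at 243, 388, 285, 119.8 and 24.7 CPM in CR1, HF1, LP2, Young and Old. The strains were far apart without overlap (log2 fold change 4.90 ± 0.47, adjusted p = 4.44e-06). *H2-Aa*, an alpha chain gene of MHC class II, was at 4883 to 9712 CPM in C57BL/6J and 1954 to 6832 CPM in FVB/NJ and was not called (0.65 ± 0.27, adjusted p = 0.195). *Gdpd3*, a lysophospholipase D gene, was at 0 in C57BL/6J apart from 23.5 CPM in 28C2, and at 259 to 474 CPM in FVB/NJ (-6.27 ± 0.49, adjusted p = 4.15e-07). Both genes set every mouse of a strain apart from every mouse of the other, and passed the test without Young and Old too.

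Of the 18 immediate early and stress genes tested, 5 were higher and 4 lower in C57BL/6J, beside 3.17% and 2.19% of all genes. The median was 0.13 beside -0.00 for all genes, and without Young and Old *Dnajb1*, *Ier3* and *Zfp36* were called. The heat shock gene *Hsph1*, named by size of change, was at 0 in Y1, at 894 to 3659 CPM in the other 8 C57BL/6J mice and at 0 to 277 CPM in FVB/NJ (4.0 ± 0.99, adjusted p = 0.0293, and 0.151 without Young and Old). The 5 higher genes of the list were *Hspa1a* (log2 fold change 2.46), *Hspa1b* (3.20), *Hsp90aa1* (2.51), *Hspa8* (1.45) and *Dnajb1* (3.42), with adjusted p-values of 0.224, 0.0934, 0.151, 0.183 and 0.0499 in edgeR without Young and Old. Y1 held 763 CPM of *Hspa1a* and 427 CPM of *Hspa1b*, below the 3362 and 918 CPM of CR1, so the strains overlapped in these 2 genes. In *Dnajb1* they did not, with 284 CPM in Y1, the lowest of C57BL/6J, and 243 CPM in CR1, the highest of FVB/NJ. The immediate early gene *Ier3* was lower, at 357 to 1090.1 CPM in C57BL/6J and 1582 to 4152 CPM in FVB/NJ (-1.58 ± 0.25, adjusted p = 0.00175), as were *Zfp36* (-1.22), *Junb* (-0.98) and *Dusp1* (-0.94). Without Young and Old the last 2 had adjusted p-values of 0.119 and 0.156 in edgeR. *Mmp9* was lower in C57BL/6J (-1.45 ± 0.37, adjusted p = 0.0293), with overlap between the strains. Pool, library and diet cannot be told apart from strain in these mice, and the part of tissue dissociation was not tested.

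Summed over all members of a pool, the 5 secretory genes given above were at 32746 CPM in the aging pool and 31264 CPM in the diet pool. Both sums take in mice with too few members for the strain fit. Over the 14 mice with at least 10 members the level ran from 0 to 127190 CPM, with a median of 14631 CPM. What part free secretory RNA had in the calls between strains was not tested. Other secretory genes were called between strains, and those beside *Pate14* were picked out after their values were seen. *Pate14*, which encodes a small secreted protein, was at 514 to 2948 CPM in C57BL/6J members and 0 to 142 CPM in FVB/NJ (3.99 ± 0.69, adjusted p = 0.00373), and *Sva* (3.58), *Svs3a* (3.14) and *Spink1* (3.09) were also higher, with adjusted p-values of 0.102, 0.151 and 0.151 in edgeR without Young and Old. The 5 secretory genes summed to 0 CPM in members of Young and Old, whose members held 32314 CPM of the 4 epididymis genes. Without these 2 libraries 11 genes were called, 4 higher and 7 lower. All 44 genes kept their direction, and 10 were still called, among them *H2-Eb1*, *Gdpd3*, *Pate14*, *Ier3*, *Mmp9*, *C5ar1* and *Dnajb1*. Among 6 mice of 3 months, 40 of the 44 genes could be tested, all in the same direction, and *H2-Eb1*, *Gdpd3*, *Pate14* and *Sva* were called. With library size alone as the scaling, 25 genes were higher and 28 lower. Leaving out Young alone left 12 called genes, and leaving out Old, HF1 or LP2 alone left 22 each.

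The lists of resident macrophage and chemokine genes showed 1 called difference between strains. Of 20 resident macrophage genes tested, *Ninj1* was lower in C57BL/6J and 0 were higher, with a median of -0.37, and of 16 chemokine genes none was called, with a median of -0.21. *Ccl8* (-0.28 ± 0.68, adjusted p = 0.891) and *Ccl7* (-0.60 ± 0.27, adjusted p = 0.241) did not pass the edgeR test. Of 7 MHC class II genes, *H2-Eb1* alone was called, with a list median of 0.65. The complement receptor gene *C5ar1* (-1.20), the lipid exporter *Abca1* (-1.31) and *Tyrobp* (-0.81) were lower and *Ifit3* (3.07) higher in C57BL/6J. Each was the only called gene of its list, of 5 complement, 2 efferocytosis, 12 general macrophage and 8 interferon genes tested. Of all genes, 5.36% were called, and 1 of 20 or 1 of 12 in a list is near that share. Of these 4 genes and *Ninj1*, only *C5ar1* was called without Young and Old. In the lists of chemokine receptors (1 tested), scavenger receptors (7), heme and iron handling (4), lysosome and lipid genes (14), monocyte genes (1), inflammatory genes (10) and growth factors (4), 0 genes were called.

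**Figure D5:**
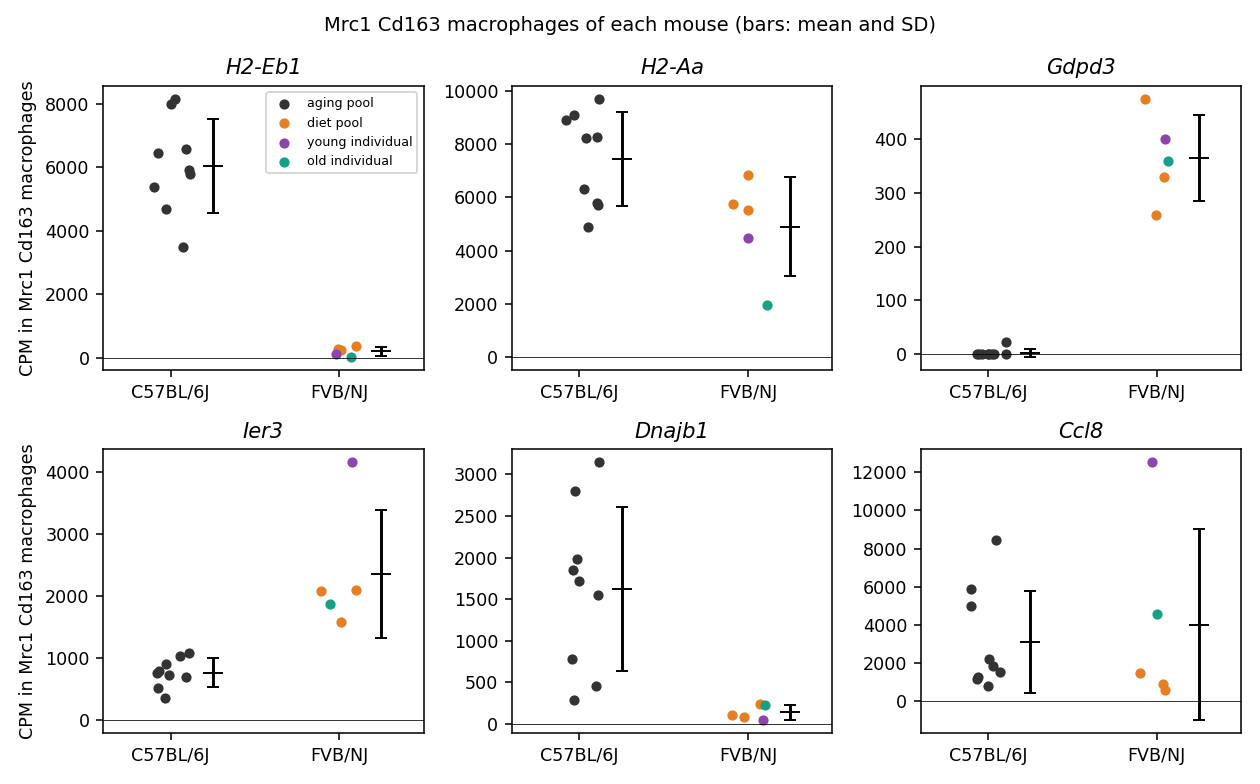
Level in CPM (vertical axis) of 6 genes in the members of each of 14 mice, 9 C57BL/6J and 5 FVB/NJ, coloured by library, with the mean and SD of each strain. *H2-Eb1* and *Gdpd3* separate the strains without overlap and *Ier3* does too, while *H2-Aa* and *Ccl8* overlap.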

How the data were processed

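Per the labels and the study's methods, the authors dissociated seminal vesicles, built 10x Genomics libraries and mapped reads with Cell Ranger 3.1.0 (the single-mouse libraries) or 6.0.1 (the pools, split by sample tags) to mm10. The deposited matrices hold raw UMI counts per gene and cell, with no normalization, and conditions came from sample tag names and titles. From these counts, cells with at least 500 genes and at most 10% mitochondrial UMIs were kept (40342 of 53352). The 30406 genes shared by all matrices were used, of which 597 have symbols that differ between annotations. No doublet caller was run. Of the members, 48 held 3 or more UMIs of fibroblast, smooth muscle, endothelial, epithelial, B or NK cell markers and were left out in an alternative.

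UMIs were summed per mouse and class and tested with edgeR 4.0.16 (quasi-likelihood, filterByExpr, TMM, Benjamini-Hochberg) in R 4.3.3, with at least 10 cells per mouse and class. DESeq2 1.42.0 was an alternative. Rule genes were left out of the tests. Levels are CPM of all UMIs. Shares were compared over mice by permutation with SciPy 1.17.1 (100000 resamples or exact). Python 3.11.15, NumPy 2.4.6, pandas 2.3.3 and matplotlib 3.10.9 were used. On simulated data with log2 changes of 2, the fits recovered 95.4% of the changed genes for the class contrast (1888 genes), 64.4% for age (1014 genes), 82.3% for rapamycin (1047 genes), 97.4% for strain (795 genes) and 50% for the interaction (1909 genes). Intervals and floors (3 counts) cover counting error only.

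The members, gene lists and tests were chosen with earlier results of these data known. Named genes are the list genes, for the class contrast also 10 called genes each way, ranked by fold change among those at 50 CPM or more in the higher class and with 1 direction in at least 80% of mice, and 3 each way for strain. Some genes of the lists and of this rule are not reported here. All p-values measure the spread between mice. Promoter sequences are from RefSeq (GRCm38.p6), with no window used here for *Ccl2* and *Ccl7*. Alternatives changed the C1q, *Mrc1* and mitochondrial limits, cells per mouse, scaling, filter, tool and libraries.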

Additional observations from a re-analysis of the deposited data

Results flagged for a closer look

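In 62 groups of 4 to 10 mice tested for a mouse standing apart from the rest (Dixon's ratio at the 95% level), 8 values stood out. A rate of 1 in 20 groups by chance would hold only for independent, normally distributed values. Groups with many values at 0 do not meet this, as any UMI of *Gdpd3* in 1 mouse would have stood out. The count of 8 is therefore a description. The log2 ratio of members to *Trem2* *Cd72* macrophages of mouse 20C1 was 0.77 for *Cd209f* and 0.77 for *Cd209g*, with 4.0 to 6.81 and 3.79 to 6.49 in the other C57BL/6J mice, and 20C1 held 0 UMIs of both genes in both classes, so these 2 ratios come from the prior count alone. The ratio of *Fxyd2* was 5.15 in HF1 (2.74 to 3.32 in the other FVB/NJ mice), that of *Dcstamp* -0.22 in 20R1 (-5.24 to -3.00) and that of *Itgax* -1.07 in 28C2 (-4.20 to -2.94). In members, *Pate14* was at 2948 CPM in Y2 (514 to 1229 in the other C57BL/6J mice), *Gdpd3* at 23.5 CPM in 28C2 (0 in the others) and *Ier3* at 4152 CPM in Young (1582 to 2097 in the other FVB/NJ mice). No cause was tested for these values.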

How the results depend on the processing

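Of 46 values of member shares under other settings, 4 changed sign. The rapamycin difference in percent of cells was 0.337 and became -0.185 with at least 20 C1q UMIs. The rapamycin difference in percent of C1q-rich cells was 0.660 and became -0.744 with at least 5 and -2.08 with at least 20 C1q UMIs. The difference of 3 months minus older mice in percent of C1q-rich cells was -0.82 and became 8.26 after thinning to 3000 UMIs. Leaving out 1 mouse at a time, the strain difference in percent of cells ran from 2.49 to 3.06, that of age from -2.57 to 1.09, that of rapamycin from -0.558 to 1.23 and the F of diet from 0.217 to 4.70. In percent of C1q-rich cells these were 2.67 to 4.67, -8.13 to 6.5, -3.86 to 5.18 and 0.0669 to 1.11.

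The contrast with *Trem2* *Cd72* macrophages called 420 genes, and 64 with at least 20 cells per mouse and class (4 mice), 166 in the aging pool, 88 in FVB/NJ and 120 in the diet pool (added after seeing the data), all with fewer mice. Leaving out 1 mouse gave 323 to 404. Age called 0 genes, 5 with DESeq2, 34 without the filter on low counts and 50 with at least 20 cells (4 mice), and 0 to 1 with 1 mouse left out (1 without Y2). Rapamycin called 0, 11 without the filter and 35 with at least 20 cells, and 0 to 0 with 1 mouse left out. Strain called 44 genes, 73 with DESeq2, 213 without the filter, 11 without Young and Old and 5 in mice of 3 months (added after seeing the data), and 12 to 45 with 1 mouse left out (12 without Young, 22 each without Old, HF1 or LP2). The interaction called 0, 1 with DESeq2 and 16 without the filter, and 0 to 1 with 1 mouse left out (1 without LP2). Of the 420 genes, *Cebpb* changed direction with at least 20 cells and *Ccrl2* in the diet pool, and no other named gene did. The causes of these changes were not tested.

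Same-numbered mice of the aging pool deviated together little (correlations -0.0966 to 0.282, median 0.0341 over 4 groups), so they share only a number, and a replicate block left 0 genes called for age and 0 for rapamycin. Strain and interaction could not be fitted at 20 cells per mouse, and genes by diet were not tested. Depth limits the rest, as most mice gave under 20 members, genes with few UMIs were not tested, and the members' gate itself depends on the UMIs of a cell.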
